A study of Mus musculus with 8 samples.

Results

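The genes described here encode the machinery that transcribes ribosomal RNA precursor and builds ribosomes from it. Members were chosen by a rule on gene symbols, which was set with earlier results of these data known. Symbols had to match the families Nop, Utp, Rrp, Polr1, Noc and Nol (Nol3 left out) or a short list of named factors, and the estimated counts summed over the 8 libraries had to reach 80. This gave 65 genes of 53819 in the deposited table, and all 65 were among the 14070 genes tested. Nol4, with a summed count of 30, fell outside the limit, and Utp14b-ps1 was at 0. The lowest genes inside were Nol4l (258), Utp14b (823) and Utp23 (899). Nol4l and the non-coding gene Polr1has match by name only, and neither is a known ribosome assembly factor.

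The series profiled messenger RNA in the quadriceps of wild type C57BL/6J mice to characterise the muscle wasting (cachexia) of head and neck squamous cell carcinoma. In the tumor group, 4 mice were injected subcutaneously at the nape with 500000 cells of the carcinoma line B0092 at 8 weeks of age. The 4 control mice, also labelled as 8 weeks of age, received phosphate-buffered saline alone. Muscle was collected on day 36, when body weight had dropped by about 10%. Each library came from 1 mouse, all tumor mice carried the same cell line, and muscle was sampled at 1 time. The sample labels name B0092 for control muscle too, so groups were taken from the treatment label. Libraries held 28436254 to 36139478 estimated counts. Levels are given as CPM, a gene's count relative to its library's total after that total was adjusted by TMM scaling between libraries. Markers of mature muscle fibres summed to 153913 to 205492 CPM in controls and 108457 to 199381 CPM in tumor mice, so the labelled tissue held its defining transcripts. In whole muscle, a change in RNA per cell cannot be told apart from a change in the number of cells of a type.

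Ribosome assembly starts in the nucleolus, where RNA polymerase I transcribes a long precursor RNA. Small nucleolar ribonucleoprotein particles (snoRNPs) modify that RNA, the small subunit processome folds and cuts its first portion, and separate factors assemble the large subunit and finish both subunits on the way to the cytoplasm. In muscle, ribosome production is known to accompany growth, and to be held down when growth signalling through mTORC1 falls. The libraries were made from polyadenylated RNA, so ribosomal RNA itself was not measured.

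Much of the machinery rose in tumor-bearing mice, and none of it was called lower. Of the 65 members, 28 (43.1%) rose and 0 fell with edgeR's quasi-likelihood test (p-values adjusted over all 14070 genes by Benjamini-Hochberg, threshold 0.05). At an unadjusted p under 0.05, 0 members were lower, and DESeq2 and limma-voom also called 0 members lower. Over all tested genes, 11% were called higher and 8.73% lower, 19.8% in all. Of the 37 members not called, 35 had a positive log2 fold change of tumor over control (log2FC), so 63 of the 65 were positive, where 50.2% of all genes were. The median log2FC was 0.44 for the members and 0.00 for all genes. All 4 tumor values lay above all 4 control values in 29 members, against 13.5% of all genes, and below them in 0 members, against 11.5% of all genes. A called rise of at least 2-fold was found in 6 members (Wdr43, Nop14, Tsr1, Gnl3, Ncl and Rrp12), against 2.5% of all genes. With upper-quartile scaling, which turned the split over all genes from 1552 higher and 1229 lower to 1169 higher and 1547 lower, 25 members rose and 0 fell.

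Summed over the 65 genes, the level was 1546, 1634, 1698 and 1742 CPM in control mice 1 to 4 and 2242, 2829, 2711 and 2647 CPM in tumor mice 1 to 4. The groups did not overlap, and tumor mouse 1 had the smallest rise. Its mean deviation from the control average was 0.35 on the log2 scale, against 0.54 to 0.56 in tumor mice 2, 3 and 4. Tumor mouse 2 held the highest of the 8 values in 32 members and tumor mouse 4 in 21. The heat map of members by library shows the same order.

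**Figure D1:**
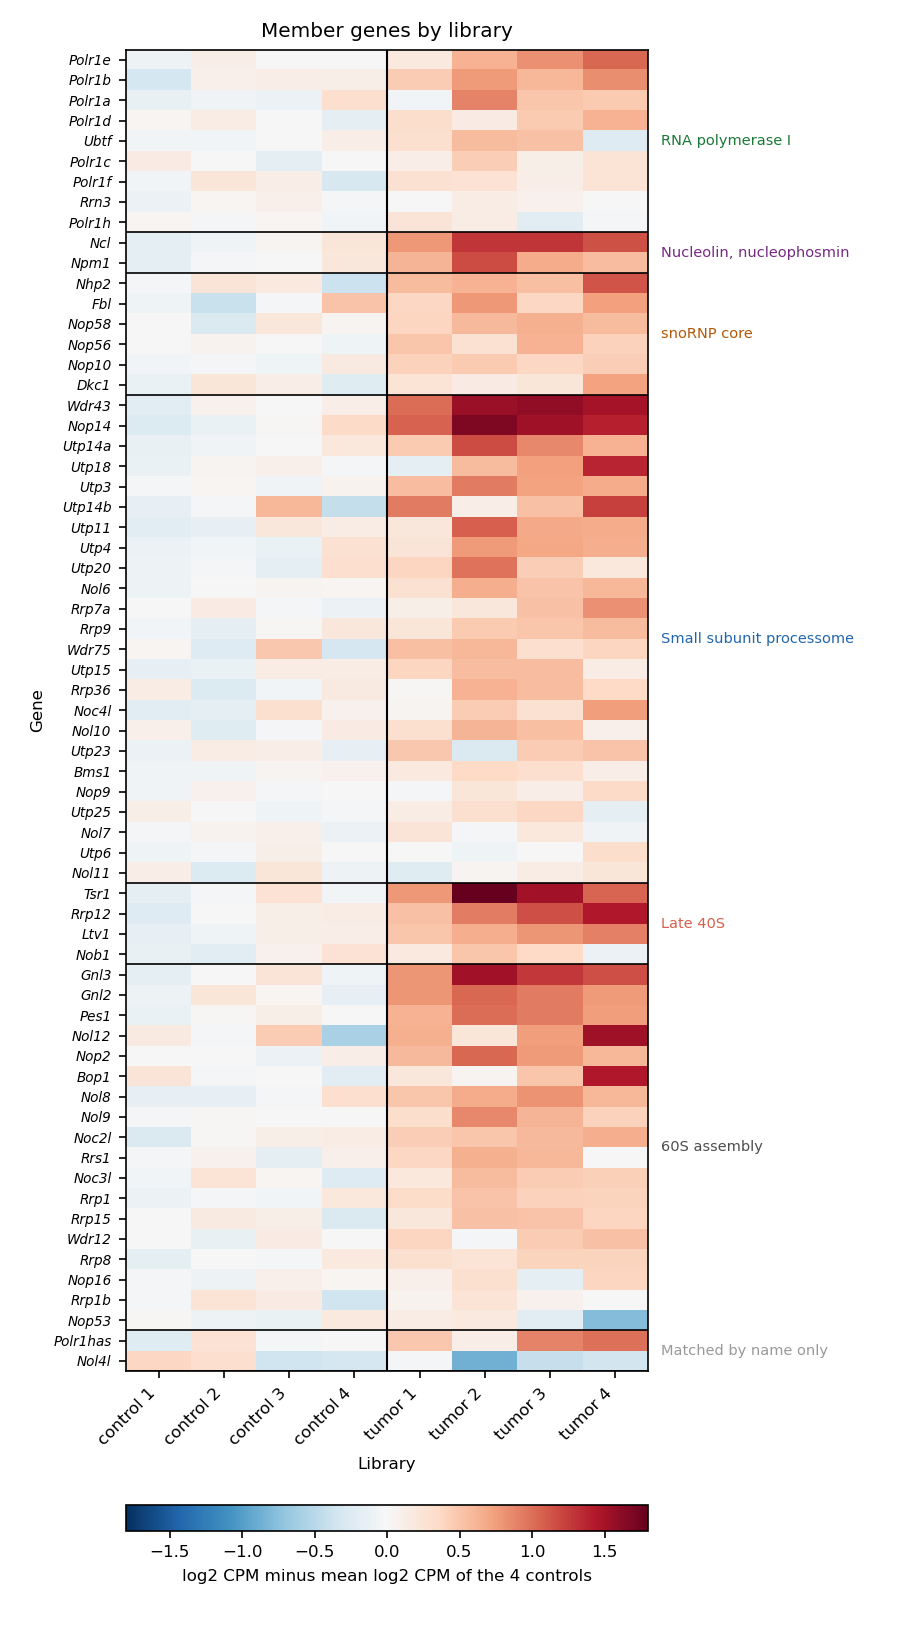
Each row is a member gene and each column a library; color is log2 CPM minus the mean log2 CPM of the 4 controls, and genes are grouped by role and sorted by fold change. The 4 tumor columns are red for most genes, tumor library 1 least so (mean deviation 0.35), and the rows of Wdr43, Nop14, Tsr1 and Gnl3 are the darkest.

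Promoter sequences of members were read because members changed in the same direction. RefSeq promoter windows (build GRCm38.p6, 250 bases before to 50 after a transcript start, genome coordinates counted from 1) were at hand for 51 of the 65 members. The E-box CACGTG, the letters bound by MYC with its partner MAX and read the same on both strands, was in 13 of these 51 genes (25.5%). Among tested genes with a window it was in 11.7%, and 7.15% of all 32851 windows held it. Of the 13 genes with the motif 6 rose, with a median log2FC of 0.72, and of the 38 without it 16 rose, with a median of 0.41. The ETS letters CCGGAAG or the reverse complement CTTCCGG were in 35.3% of members and 19.7% of tested genes, and CCAAT or ATTGG in 31.4% and 42.6%. A match is a run of letters and was not tested for binding. The windows of the 4 members with the motif and the largest rises, with CACGTG in capitals, and of Nop14, which rose about as much as Wdr43 and has no such run in its window, follow from 250 bases before the start to 30 after it.
Wdr43 (chr17:71615965-71616244, plus strand): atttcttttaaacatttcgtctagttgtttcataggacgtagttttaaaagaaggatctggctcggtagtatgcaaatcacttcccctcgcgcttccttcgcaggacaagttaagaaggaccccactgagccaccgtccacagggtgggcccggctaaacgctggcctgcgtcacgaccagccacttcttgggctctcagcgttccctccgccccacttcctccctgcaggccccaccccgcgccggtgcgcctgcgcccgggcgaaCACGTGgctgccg
Tsr1 (chr11:74897830-74898109, plus strand): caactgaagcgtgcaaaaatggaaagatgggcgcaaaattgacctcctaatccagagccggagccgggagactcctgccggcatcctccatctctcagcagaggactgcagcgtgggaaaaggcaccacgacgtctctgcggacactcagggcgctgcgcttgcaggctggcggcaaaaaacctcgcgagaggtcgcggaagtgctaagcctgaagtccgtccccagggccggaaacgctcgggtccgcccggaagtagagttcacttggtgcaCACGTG
Pes1 (chr11:3963725-3964004, plus strand): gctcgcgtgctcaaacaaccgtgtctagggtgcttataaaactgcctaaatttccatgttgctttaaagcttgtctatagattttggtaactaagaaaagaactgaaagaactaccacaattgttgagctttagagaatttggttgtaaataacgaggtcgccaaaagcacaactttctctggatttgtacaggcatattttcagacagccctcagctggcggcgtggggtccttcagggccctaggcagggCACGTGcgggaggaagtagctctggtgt
Nop2 (chr6:125131633-125131912, plus strand): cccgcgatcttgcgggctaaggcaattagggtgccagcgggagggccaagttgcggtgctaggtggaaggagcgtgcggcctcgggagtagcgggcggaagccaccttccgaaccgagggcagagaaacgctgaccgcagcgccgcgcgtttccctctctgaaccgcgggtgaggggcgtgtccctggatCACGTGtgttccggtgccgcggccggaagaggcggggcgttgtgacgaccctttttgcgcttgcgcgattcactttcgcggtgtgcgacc
Nop14 (chr5:34660119-34660398, minus strand): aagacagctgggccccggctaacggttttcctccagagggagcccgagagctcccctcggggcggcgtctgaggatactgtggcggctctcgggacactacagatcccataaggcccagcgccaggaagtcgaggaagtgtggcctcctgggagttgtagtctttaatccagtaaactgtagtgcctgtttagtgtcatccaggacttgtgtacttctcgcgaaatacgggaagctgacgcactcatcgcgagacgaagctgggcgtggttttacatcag
The motif begins 17 bases after the transcript start in Wdr43, 24 after in Tsr1 and 2 after in Pes1, and 60 before it in Nop2. These coordinates are of the older build GRCm38.p6, whereas the counts were made on GRCm39.

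Nucleolin and nucleophosmin, the abundant RNA-binding proteins of the nucleolus, both rose. Nucleolin (Ncl), which binds nascent precursor RNA, measured 188, 202, 219 and 246 CPM in the 4 control mice and 367, 519, 518 and 470.3 CPM in the 4 tumor mice, each in the order 1 to 4. Ncl thus rose 2.19-fold (log2FC 1.13 ± 0.16, SE, adjusted p = 0.00355, edgeR), with group means of 214 ± 25.1 and 469 ± 71.3 CPM (SD, n = 4). Nucleophosmin (Npm1), a histone and ribosomal protein chaperone, had 75.5, 83.3, 84.8 and 97.8 CPM in controls 1 to 4 and 130.3, 191, 135 and 125 CPM in tumor mice 1 to 4. From 85.4 ± 9.24 CPM in controls, Npm1 rose 1.70-fold to 145 ± 31.0 CPM (SD, n = 4; log2FC 0.77 ± 0.16, SE, edgeR adjusted p = 0.0118). Both genes had no overlap between groups, and tumor mouse 2 stood above the other tumor mice for Npm1.

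Of 9 genes for RNA polymerase I and its initiation factors, 2 rose (22.2%, against 11% of all tested genes), with a median log2FC of 0.32. Polr1b, the second largest subunit of the catalytic core, lay at 10.4, 13.8, 14.03 and 13.9 CPM in control mice 1 to 4 and at 17.8, 22.1, 19.5 and 23.1 CPM in tumor mice 1 to 4. This was a 1.58-fold rise between means of 13.04 ± 1.75 and 20.6 ± 2.38 CPM (SD, n = 4), log2FC 0.66 ± 0.14 (SE), adjusted p = 0.0123 by edgeR. Polr1e, a subunit of the dissociable heterodimer that sits on the core, measured 2.58, 2.98, 2.72 and 2.72 CPM in the 4 control mice and 3.09, 4.25, 4.88 and 5.68 CPM in the 4 tumor mice, each in the order 1 to 4. Group means were 2.75 ± 0.17 and 4.48 ± 1.09 CPM (SD, n = 4), so Polr1e rose 1.63-fold, and edgeR gave a log2FC of 0.70 ± 0.22 (SE) with an adjusted p of 0.049. Its groups did not overlap, but the call lay at the threshold. It was lost in 15 of 19 alternative fits, among them those without control mouse 1 (adjusted p = 0.13), without tumor mouse 3 (adjusted p = 0.127) and with upper-quartile scaling (adjusted p = 0.0709). The partner of Polr1e in the heterodimer is listed under its older symbol Cd3eap, outside the naming rule, and rose 1.83-fold (adjusted p = 0.00542, edgeR).

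The other polymerase I genes did not pass the test. Polr1a, the largest subunit, which carries the active site, had 40.7, 42.6, 41.6 and 55.0 CPM in controls 1 to 4 and 43.2, 83.4, 63.0 and 61.6 CPM in tumor mice 1 to 4. Control mouse 4 was above the other controls and above tumor mouse 1, so the groups overlapped (log2FC 0.48 ± 0.19, SE, adjusted p = 0.108, edgeR). It passed in 3 of 19 alternative fits. Among these were the fits without tumor mouse 1 (adjusted p = 0.0294, edgeR) and with the Myh4 ratio, a measure of fibre type, as a covariate (adjusted p = 0.0167, edgeR). Ubtf, the architectural factor that keeps ribosomal DNA open, lay at 51.6, 51.4, 53.3 and 57.9 CPM in control mice 1 to 4 and at 65.02, 79.2, 76.9 and 45.4 CPM in tumor mice 1 to 4. Tumor mouse 4 was below all controls and the other 3 tumor mice were above them (log2FC 0.32 ± 0.17, adjusted p = 0.215, edgeR). Ubtf passed in 2 of 19 alternative fits, 1 of them that without tumor mouse 4 (log2FC 0.45, adjusted p = 0.0289, edgeR). Rrn3, the factor that couples the polymerase to its promoter and a known target of growth signalling, measured 45.6, 50.5, 52.3 and 48.3 CPM in the 4 control mice and 48.8, 53.8, 51.6 and 49.5 CPM in the 4 tumor mice, each in the order 1 to 4. Its groups overlapped throughout (log2FC 0.05 ± 0.10, adjusted p = 0.749), and with upper-quartile scaling the sign turned (-0.03). Polr1d and Polr1c, which are shared with RNA polymerase III, had log2FCs of 0.40 and 0.23. The Polr1d values of all tumor mice lay above all controls (adjusted p = 0.0583, edgeR). The stalk subunit gene Polr1f and Polr1h, whose product aids RNA cleavage by the polymerase, had log2FCs of 0.21 and 0.05.

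Of 6 genes for core snoRNP proteins 4 rose (66.7%, against 11% of all tested genes), and log2FCs ran from 0.34 to 0.72. In the box C/D particles, which guide ribose methylation, the scaffold gene Nop58 had 12.8, 10.7, 14.8 and 13.2 CPM in controls 1 to 4 and 16.8, 19.2, 19.8 and 19.0 CPM in tumor mice 1 to 4. Nop58 thus rose 1.45-fold (log2FC 0.54 ± 0.13, SE, adjusted p = 0.019, edgeR), with group means of 12.8 ± 1.69 and 18.7 ± 1.33 CPM (SD, n = 4). Its paralog Nop56 lay at 19.5, 20.3, 19.5 and 18.3 CPM in control mice 1 to 4 and at 27.4, 23.4, 30.1 and 26.0 CPM in tumor mice 1 to 4. From 19.4 ± 0.83 CPM in controls, Nop56 rose 1.37-fold to 26.7 ± 2.77 CPM (SD, n = 4; log2FC 0.46 ± 0.11, SE, edgeR adjusted p = 0.0205). Tumor and control values of both scaffold genes were apart. Fbl (fibrillarin), the methyltransferase of the same particle, measured 11.3, 9.03, 11.6 and 17.1 CPM in the 4 control mice and 15.5, 20.5, 15.5 and 19.9 CPM in the 4 tumor mice, each in the order 1 to 4. Control mouse 4 lay inside the tumor range, and the gene did not pass (log2FC 0.54 ± 0.20, adjusted p = 0.0841, edgeR). Fbl passed in 4 of 19 alternative fits, 1 of them that without control mouse 4 alone (log2FC 0.74, adjusted p = 0.0209, edgeR).

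In the box H/ACA particles, which guide pseudouridylation and also hold telomerase RNA, Nop10 had 20.1, 20.4, 19.8 and 23.2 CPM in controls 1 to 4 and 27.9, 28.8, 27.1 and 28.2 CPM in tumor mice 1 to 4. This was a 1.34-fold rise between means of 20.9 ± 1.57 and 28.03 ± 0.70 CPM (SD, n = 4), log2FC 0.42 ± 0.10 (SE), adjusted p = 0.0186 by edgeR. Nhp2 lay at 13.7, 16.4, 15.7 and 10.7 CPM in control mice 1 to 4 and at 20.7, 21.6, 20.2 and 30.7 CPM in tumor mice 1 to 4. Group means were 14.1 ± 2.59 and 23.3 ± 4.98 CPM (SD, n = 4), so Nhp2 rose 1.65-fold, and edgeR gave a log2FC of 0.72 ± 0.18 (SE) with an adjusted p of 0.0248. Tumor values of both were above all controls, and tumor mouse 4 was the highest for Nhp2. The pseudouridine synthase gene Dkc1 measured 23.0, 28.9, 27.1 and 21.5 CPM in the 4 control mice and 29.5, 27.8, 28.9 and 41.1 CPM in the 4 tumor mice, each in the order 1 to 4. Tumor mouse 4 was high and the other tumor mice lay within or near the control range, and the gene did not pass (log2FC 0.34 ± 0.16, adjusted p = 0.159, edgeR). The count of calls moved with single mice while the sizes stayed. All 4 were lost without control mouse 1 and 1 was left without control mouse 2 or tumor mouse 3. Without control mouse 1 the adjusted p was 0.0637 for Nop58, 0.0666 for Nop56, 0.0698 for Nop10 and 0.0768 for Nhp2 (edgeR), and their log2FCs were 0.54, 0.46, 0.41 and 0.71, against 0.54, 0.46, 0.42 and 0.72 with all 8 libraries. Calls over all genes dropped in the same fit, from 1552 to 630 higher.

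The small subunit processome held the largest rises among the members and also genes near 0. Of its 24 members, 8 rose (33.3%, against 11% of all tested genes). All 24 had a positive log2FC, against 50.2% of all genes, and the range ran from 0.04 to 1.43. Wdr43, whose promoter window is printed above, encodes a subunit of the UtpA complex that binds the start of the precursor RNA. It had 29.2, 35.3, 33.8 and 36.4 CPM in controls 1 to 4 and 67.2, 98.8, 102 and 94.7 CPM in tumor mice 1 to 4. Wdr43 thus rose 2.69-fold (log2FC 1.43 ± 0.15, SE, adjusted p = 0.00233, edgeR), with group means of 33.7 ± 3.15 and 90.6 ± 15.9 CPM (SD, n = 4). Nop14, which joins the processome with its partner Noc4l, lay at 25.9, 28.4, 31.1 and 39.1 CPM in control mice 1 to 4 and at 64.2, 98.9, 89.0 and 81.4 CPM in tumor mice 1 to 4. From 31.1 ± 5.75 CPM in controls, Nop14 rose 2.68-fold to 83.4 ± 14.7 CPM (SD, n = 4; log2FC 1.42 ± 0.17, SE, edgeR adjusted p = 0.00273). The groups were far apart for both genes, and tumor mouse 1 was the lowest tumor mouse for both.

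Among the other processome genes called, Utp3 (a relative of yeast Sas10) measured 33.9, 35.3, 33.2 and 36.0 CPM in the 4 control mice and 50.7, 65.9, 57.4 and 55.3 CPM in the 4 tumor mice, each in the order 1 to 4. This was a 1.66-fold rise between means of 34.6 ± 1.28 and 57.3 ± 6.37 CPM (SD, n = 4), log2FC 0.73 ± 0.11 (SE), adjusted p = 0.00412 by edgeR. Utp14a, an activator of the helicase that releases the U3 snoRNA, had 12.3, 13.001, 13.5 and 15.5 CPM in controls 1 to 4 and 18.9, 30.7, 24.6 and 20.8 CPM in tumor mice 1 to 4. Group means were 13.6 ± 1.37 and 23.8 ± 5.20 CPM (SD, n = 4), so Utp14a rose 1.75-fold, and edgeR gave a log2FC of 0.81 ± 0.16 (SE) with an adjusted p of 0.0108. The groups were apart for both. Utp11 (1.602-fold), Utp4 (1.51-fold), Nol6 (1.43-fold) and Rrp9 (1.36-fold) also rose, with adjusted p from 0.0139 to 0.0381 (edgeR), and the groups of Utp11 and Utp4 overlapped. The count of 8 became 4 without control mouse 1 and 5 without control mouse 2, tumor mouse 2 or tumor mouse 3. In these fits 4.4%, 5.3%, 9.27% and 4.94% of all genes were called higher, in the same order. Utp14b, a retrotransposed copy of Utp14a known from male germ cells, lay at 2.12, 2.32, 3.59 and 1.74 CPM in control mice 1 to 4 and at 4.58, 2.56, 3.44 and 5.63 CPM in tumor mice 1 to 4. It overlapped between groups and did not pass (log2FC 0.73 ± 0.31, adjusted p = 0.127), and its counts were shared with other genes in 5 libraries. The processome genes nearest to 0 were Nol11, Utp6 and Nol7, with log2FCs of 0.04, 0.07 and 0.08. The other 12 processome members that were not called had log2FCs from 0.17 (Nop9 and Utp25) to 0.73 (Utp18), and among them only Bms1, a GTPase of the processome, had all tumor values above all controls (log2FC 0.24).

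Factors that finish the 40S subunit rose in 3 of 4 cases (75%, against 11% of all tested genes). Tsr1, a GTPase-like protein that blocks early joining of the subunits, measured 24.6, 26.8, 33.0 and 26.5 CPM in the 4 control mice and 47.6, 99.6, 79.0 and 56.9 CPM in the 4 tumor mice, each in the order 1 to 4. Tsr1 thus rose 2.55-fold (log2FC 1.35 ± 0.22, SE, adjusted p = 0.00528, edgeR), with group means of 27.7 ± 3.63 and 70.8 ± 23.3 CPM (SD, n = 4). Rrp12, an export factor for both subunits, had 38.7, 44.99, 48.8 and 49.9 CPM in controls 1 to 4 and 65.5, 85.8, 102 and 123 CPM in tumor mice 1 to 4. From 45.6 ± 5.05 CPM in controls, Rrp12 rose 2.06-fold to 94.1 ± 24.5 CPM (SD, n = 4; log2FC 1.05 ± 0.19, SE, edgeR adjusted p = 0.00722). Ltv1, which leaves the pre-40S particle late, lay at 20.1, 21.1, 23.8 and 24.1 CPM in control mice 1 to 4 and at 31.5, 35.1, 38.7 and 41.9 CPM in tumor mice 1 to 4. This was a 1.65-fold rise between means of 22.3 ± 1.99 and 36.8 ± 4.51 CPM (SD, n = 4), log2FC 0.72 ± 0.12 (SE), adjusted p = 0.00593 by edgeR. The groups were apart for all 3 genes, with tumor mouse 2 highest for Tsr1 and tumor mouse 4 highest for Rrp12 and Ltv1. Nob1, the nuclease that makes the final cut of small subunit RNA, measured 14.8, 14.03, 17.0 and 19.5 CPM in the 4 control mice and 18.4, 22.9, 20.8 and 15.1 CPM in the 4 tumor mice, each in the order 1 to 4. Tumor mice 1 and 4 lay within the control range, and the gene did not pass (log2FC 0.24 ± 0.16, adjusted p = 0.32, edgeR).

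**Figure D2:**
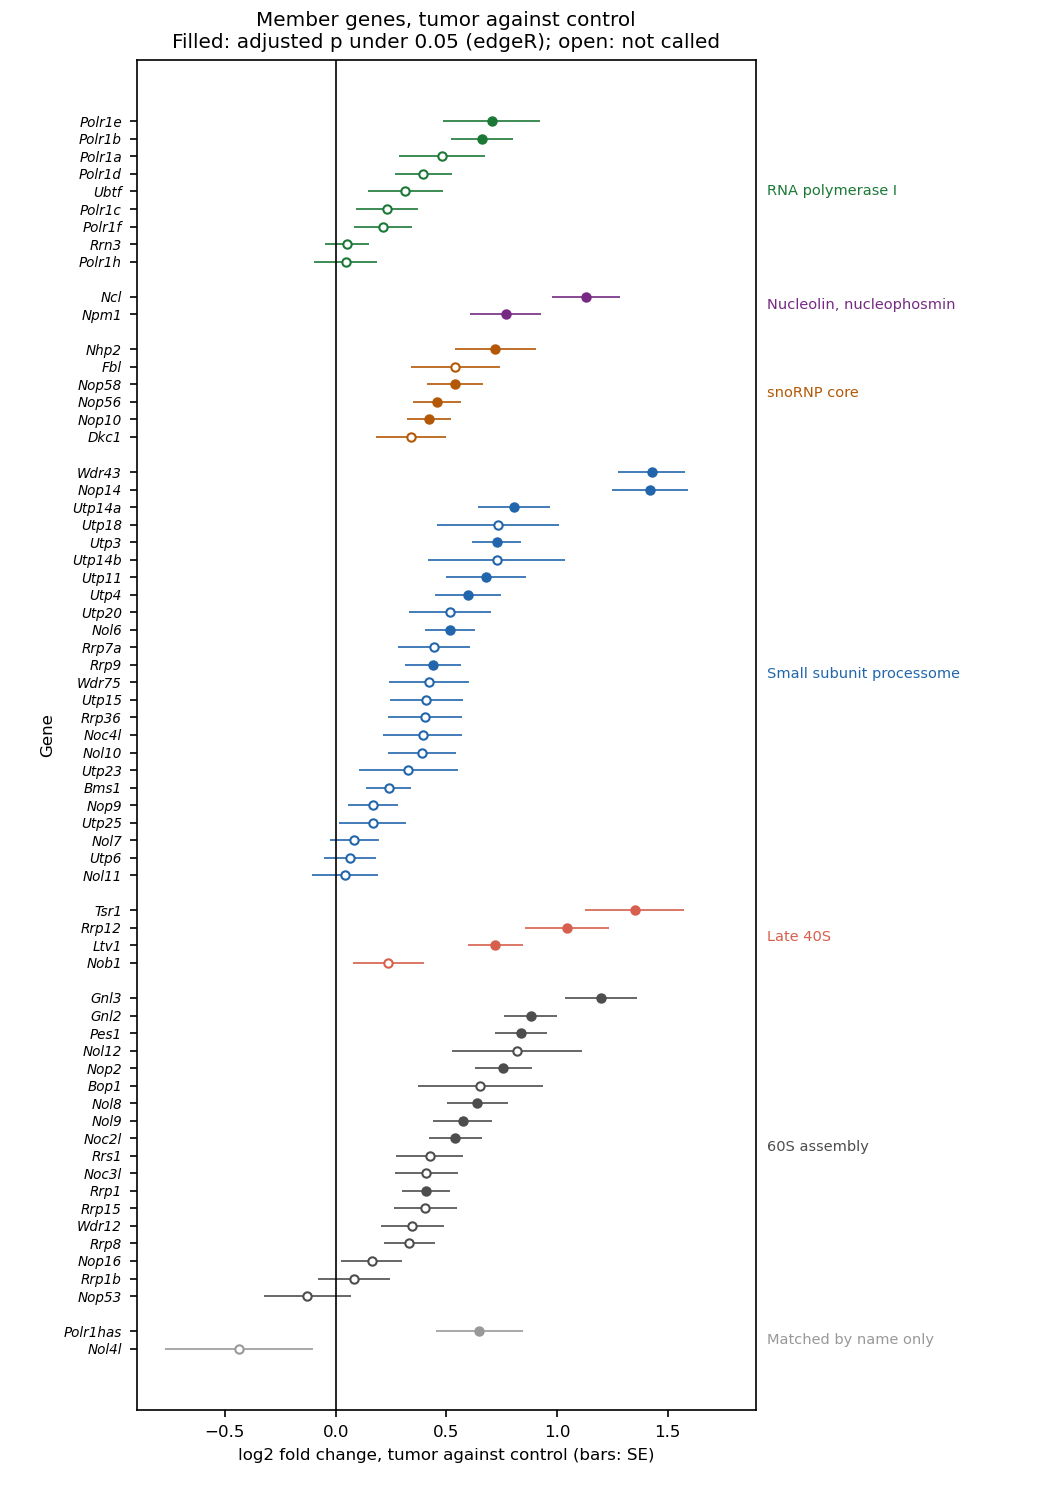
Points give the log2FC of each member (tumor against control) with its SE, filled where the edgeR adjusted p is under 0.05, grouped by role. The 28 filled points all lie right of 0, the largest at 1.43 (Wdr43), while Rrn3 and Polr1h lie at 0.05 and only Nop53 and Nol4l lie left of 0.

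Large subunit assembly genes rose in 8 of 18 cases (44.4%, against 11% of all tested genes), with a median log2FC of 0.48. Gnl3 (nucleostemin), a nucleolar GTPase, had 16.2, 18.3, 21.4 and 17.1 CPM in controls 1 to 4 and 31.6, 51.7, 43.9 and 40.7 CPM in tumor mice 1 to 4. Group means were 18.3 ± 2.29 and 42.0 ± 8.31 CPM (SD, n = 4), so Gnl3 rose 2.30-fold, and edgeR gave a log2FC of 1.20 ± 0.16 (SE) with an adjusted p of 0.00355. Gnl2, a GTPase of pre-60S particles, lay at 34.4, 42.5, 37.5 and 33.2 CPM in control mice 1 to 4 and at 63.6, 75.3, 70.5 and 62.5 CPM in tumor mice 1 to 4. Gnl2 thus rose 1.84-fold (log2FC 0.88 ± 0.12, SE, adjusted p = 0.00355, edgeR), with group means of 36.9 ± 4.17 and 68.0 ± 6.02 CPM (SD, n = 4). Nop2, a cytosine methyltransferase of large subunit RNA, measured 17.2, 17.3, 16.1 and 18.8 CPM in the 4 control mice and 25.9, 35.5, 29.6 and 26.3 CPM in the 4 tumor mice, each in the order 1 to 4. From 17.3 ± 1.13 CPM in controls, Nop2 rose 1.69-fold to 29.3 ± 4.42 CPM (SD, n = 4; log2FC 0.76 ± 0.13, SE, edgeR adjusted p = 0.00574). In each of these genes all tumor mice were above all controls and tumor mouse 2 was the highest. Nol8 (1.56-fold), Nol9 (1.49-fold), Noc2l (1.46-fold) and Rrp1 (1.33-fold) also rose, with adjusted p from 0.0127 to 0.028 (edgeR). The count of 8 became 4 without control mouse 1 and 5 without tumor mouse 3, fits in which 4.4% and 4.94% of all genes were called higher.

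The PeBoW complex, made of Pes1, Bop1 and Wdr12 and needed for large subunit RNA processing, had 1 of 3 genes called. Pes1 had 25.4, 28.02, 29.6 and 27.4 CPM in controls 1 to 4 and 42.7, 55.7, 52.6 and 46.7 CPM in tumor mice 1 to 4. This was a 1.79-fold rise between means of 27.6 ± 1.75 and 49.4 ± 5.82 CPM (SD, n = 4), log2FC 0.84 ± 0.12 (SE), adjusted p = 0.00355 by edgeR. Bop1 lay at 28.9, 24.2, 24.9 and 21.4 CPM in control mice 1 to 4 and at 28.4, 25.4, 35.1 and 67.3 CPM in tumor mice 1 to 4. Its mean was carried by tumor mouse 4, while tumor mice 1 and 2 lay within the control range (log2FC 0.65 ± 0.28, adjusted p = 0.131, edgeR). Wdr12 measured 16.3, 14.8, 18.0 and 16.2 CPM in the 4 control mice and 21.3, 15.9, 22.4 and 23.5 CPM in the 4 tumor mice, each in the order 1 to 4. Tumor mouse 2 lay within the control range, and the gene did not pass (log2FC 0.35 ± 0.14, adjusted p = 0.111, edgeR). Wdr12 passed in 3 of 19 alternative fits, 1 of them that without tumor mouse 2 alone (adjusted p = 0.0291, edgeR). The remaining 7 large subunit genes without a call had log2FCs from 0.08 (Rrp1b) to 0.82 (Nol12), and of these only Rrp8 and Rrp15 had no overlap between groups. Nop53, the only assembly factor with a negative value, had a log2FC of -0.13 ± 0.20 (adjusted p = 0.687, edgeR).

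Of the genes that match by name only, Polr1has had 14.8, 20.5, 16.9 and 17.1 CPM in controls 1 to 4 and 24.0, 18.7, 31.997 and 34.1 CPM in tumor mice 1 to 4. It was called (log2FC 0.65 ± 0.20, adjusted p = 0.0443, edgeR) with tumor mouse 2 inside the control range, and the call was lost in 11 of 19 alternative fits. It lies antisense to Polr1h, and the strand setting of the counting is not given in the sources used here, so its value is uncertain. Nol4l, with at most 1.53 CPM, lay at 1.53, 1.46, 0.90 and 0.94 CPM in control mice 1 to 4 and at 1.15, 0.62, 0.87 and 0.92 CPM in tumor mice 1 to 4. Its log2FC of -0.44 ± 0.33 was the lowest among members and did not pass (adjusted p = 0.382, edgeR).

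**Figure D3:**
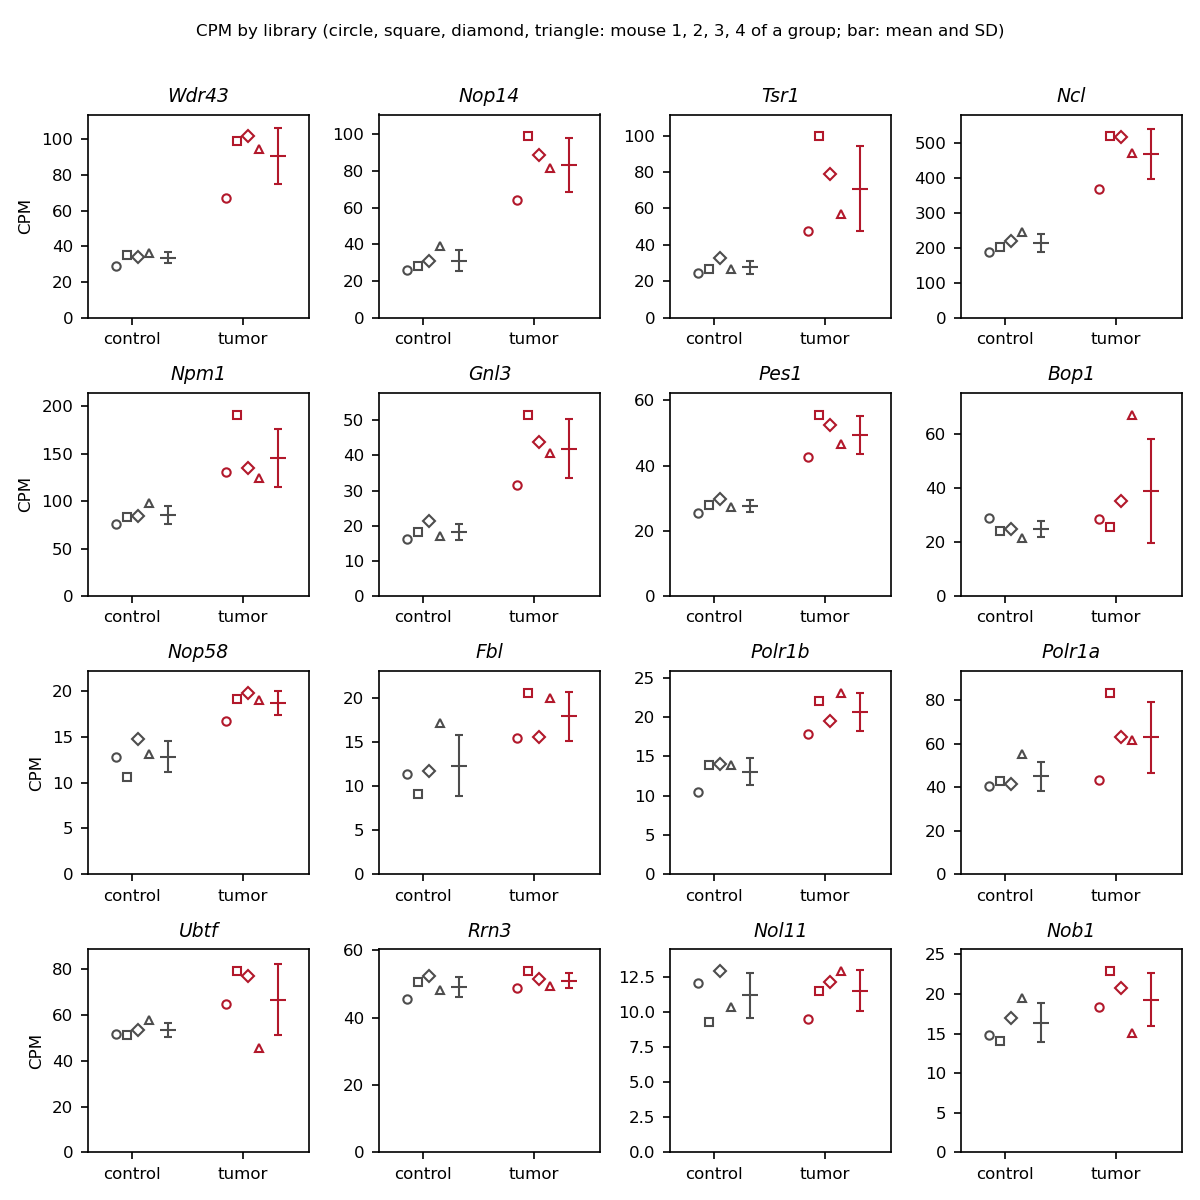
CPM of 16 members in each library, with the mean and SD of each group of 4 beside the points and each axis starting at 0. Tumor and control points are apart for Wdr43, Nop14, Tsr1, Ncl, Npm1, Gnl3, Pes1, Nop58 and Polr1b, and overlap for Bop1, Fbl, Polr1a, Ubtf, Rrn3, Nol11 and Nob1.

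A pass in one gene and a miss in another does not show that they differ, so log2 ratios of 2 genes were compared between groups by a two-sided exact permutation test over the 8 libraries. These 16 pairs are partners in a complex or step, but they were chosen after the values were seen, so their p-values are descriptive. P-values were adjusted over the 16, and the smallest p this design allows is 0.0286. Each pair with an adjusted p of 0.0457 had this smallest p. That adjusted value thus depends on how many of the chosen pairs reached it, and 4 of those pairs share Wdr43. Within UtpA, Wdr43 rose more than each of the 4 partners compared. The log2 ratio of Wdr43 to Nol11 went from 1.595 ± 0.32 to 2.97 ± 0.14 (SD, n = 4), a difference of 1.37 (exact permutation adjusted p = 0.0457). Differences in the ratio of Wdr43 to Utp15, Wdr75 and Utp4 were 1.01, 0.96 and 0.82, each with the same adjusted p. Nop14 likewise rose over its partner Noc4l by 1.04 on the log2 scale, and Ncl over Npm1 by 0.37 (exact permutation adjusted p = 0.0457 for both).

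For RNA polymerase I, the ratio of Rrn3 to Polr1b went from 1.92 ± 0.14 to 1.31 ± 0.16, so the initiation factor fell relative to the subunit by 0.61 on the log2 scale (exact permutation adjusted p = 0.0457, n = 4 each). Polr1b also moved against Polr1c, by 0.44 with the same adjusted p. Against Polr1a the difference was 0.21 (exact permutation adjusted p = 0.416). In PeBoW, the ratio of Pes1 to Wdr12 rose by 0.50 (exact permutation adjusted p = 0.0457), while that of Pes1 to Bop1 differed by 0.28 (exact permutation adjusted p = 0.598). Nhp2 rose over Dkc1 by 0.39 (exact permutation adjusted p = 0.0457). The pairs Nop58 to Fbl, Nop56 to Fbl, Nop10 to Dkc1 and Polr1e to Cd3eap had differences between -0.19 and 0.09 and exact permutation adjusted p from 0.419 to 0.943. With 1 library left out, each of the 10 differences at the smallest possible p kept its sign.

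Other genes of the pathway, which the naming rule does not reach, were counted by list. Of 108 further assembly factors, 54 rose and 0 fell, with a median log2FC of 0.47. The count was 24 without control mouse 1, 31 without control mouse 2 and 28 without tumor mouse 3, and 41 without control mouse 4 and tumor mouse 2 together. In the same fits 4.4%, 5.3%, 4.94% and 10.5% of all genes were called higher, against 11% with all 8 libraries. The lists that follow are to be read beside these shares. Of 11 other polymerase I and nucleolar factors, 5 rose (3 without control mouse 1, control mouse 2 or tumor mouse 3). The RNA helicase gene Ddx21 rose 2.45-fold, the rDNA transcription regulator gene Mybbp1a 1.98-fold and Tcof1 (treacle, a nucleolar scaffold) 1.84-fold. Ddx21 measured 42.1, 47.6, 55.5 and 55.0 CPM in the 4 control mice and 83.1, 164, 131 and 113 CPM in the 4 tumor mice, each in the order 1 to 4, and its groups were apart. Of 11 other snoRNP factors, 4 rose, among them Gar1 (1.57-fold), Znhit6 (1.37-fold) and Rpap3 (1.35-fold). The Gar1 call was lost in 9 of 19 alternative fits, and of the 4 calls 0 were left without control mouse 1 and 1 to 2 without control mouse 2, control mouse 3, tumor mouse 2, tumor mouse 3 or tumor mouse 4.

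In the wider small subunit list 14 of 35 genes rose (8 without control mouse 1 or tumor mouse 3, 9 without control mouse 2), led by Mphosph10, a U3 snoRNP protein (2.09-fold), the helicase gene Ddx49 (1.57-fold) and the RNA acetyltransferase gene Nat10 (1.502-fold). The wider large subunit list held 31 rises among 51 genes (13, 18 and 16 without control mouse 1, control mouse 2 and tumor mouse 3). Gtpbp4, a GTPase of early pre-60S particles, rose 2.53-fold, Mak16 2.25-fold and Cebpz 1.75-fold (adjusted p from 0.00257 to 0.00356, edgeR). Gtpbp4 had 32.1, 33.4, 40.1 and 47.0 CPM in controls 1 to 4 and 69.5, 114, 98.2 and 104 CPM in tumor mice 1 to 4, with all tumor mice above all controls. The RNA exosome, which trims precursor RNA, had 5 of 13 genes higher, including Exosc1 (2.03-fold), Exosc5 (1.75-fold) and the helicase gene Mtrex (1.42-fold). Only 1 exosome call was left without control mouse 1 or tumor mouse 3, 2 without control mouse 2 and 3 without control mouse 3.

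Host genes that carry snoRNAs in their introns rose in 7 of 14 cases, with a median log2FC of 0.82. The count was 2 without control mouse 1, control mouse 2 or tumor mouse 3, and 3 or 4 without control mouse 3, tumor mouse 1 or tumor mouse 2. Gas5 lay at 22.7, 23.4, 29.8 and 27.2 CPM in control mice 1 to 4 and at 61.2, 79.0, 58.9 and 43.1 CPM in tumor mice 1 to 4, a 2.35-fold rise (adjusted p = 0.00399, edgeR). Epb41l4aos rose 2.96-fold and Snhg6 1.77-fold. Epb41l4aos is annotated as antisense to a neighbour, so reads of the pair could not be told apart without strand.

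RNA polymerases II and III were compared with polymerase I by their own subunit genes. Over all tested genes, 11% were called higher and 8.73% lower. For polymerase II, 1 of 8 genes (12.5%) rose (Polr2c, 1.51-fold) and 1 (12.5%) fell (Polr2m, 1.38-fold lower), with a median log2FC of 0.17. Both shares were near those of all genes. For polymerase III, 3 of 11 (27.3%) rose, which were Polr3c (1.64-fold), Polr3e (1.71-fold) and Polr3b (1.59-fold), with a median of 0.24. The Polr2m call was lost without control mouse 1, 2 or 4 or tumor mouse 3, and 1 polymerase III call was left without control mouse 1 or 2 or tumor mouse 2 or 3. Of 5 subunits shared among polymerases, 0 passed with edgeR (0 at an unadjusted p under 0.05, 0 with DESeq2), with a median of 0.06. The list medians of polymerases II and III and of the shared subunits lay below that of the 65 members (0.44). So did that of the 9 polymerase I genes (0.32), a list that also holds Ubtf, Rrn3 and the shared Polr1c and Polr1d. Its other subunit genes lay on both sides of the members' median. Polr1a, Polr1b and Polr1e (0.48, 0.66 and 0.70) were above it, and Polr1f and Polr1h (0.21 and 0.05) below. These differences were not tested.

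The transcription factor gene Myc, a known driver of ribosome biogenesis genes, measured 2.23, 2.22, 4.31 and 2.72 CPM in the 4 control mice and 6.25, 9.19, 10.7 and 12.9 CPM in the 4 tumor mice, each in the order 1 to 4. All tumor values were above all control values, and Myc rose 3.39-fold (log2FC 1.76 ± 0.29, SE, adjusted p = 0.00508, edgeR). Of the 9 tested genes of the MYC network, Myc and Mga (22.2%) rose (Mga 1.71-fold) and 0 fell. Over all tested genes, 11% were called higher and 8.73% lower. Mycn, a relative of Myc that missed the count filter, lay at 0.45, 0.595, 0.23 and 0.51 CPM in controls 1 to 4 and at 0.066, 0, 0.032 and 0.057 CPM in tumor mice 1 to 4. It was called lower with no count filter and without control mouse 3 or tumor mouse 1, 2, 3 or 4, and the other fits did not test it. Where the count filter was on, Mycn passed it only through its control values. That favored a call in this direction, so these calls are not counted as a result. The Mga call was lost without control mouse 1, control mouse 3 or tumor mouse 3 (adjusted p from 0.0559 to 0.0768, edgeR).

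The proteins that assembly factors load onto ribosomal RNA were counted by compartment. Of 76 cytosolic ribosomal protein genes 48 rose (63.2%, against 11% of all tested genes) and 0 fell, with a median log2FC of 0.51. That count ranged from 12 (without control mouse 1 or tumor mouse 3) to 65 (without tumor mouse 2), and was 13, 21, 24 and 29 without control mouse 2, control mouse 3, control mouse 4 and tumor mouse 4. Over all genes 4.4%, 4.94% and 9.27% were called higher without control mouse 1, tumor mouse 3 and tumor mouse 2. The shares were 5.3%, 6.99%, 8.96% and 10.5% without control mouse 2, control mouse 3, control mouse 4 and tumor mouse 4. Of 78 mitochondrial ribosomal protein genes 3 rose (3.85%, against 11% of all tested genes) and 16 fell (20.5%, against 8.73%), with a median of -0.16. The difference between these lists was not tested. The count of falls was 10 without control mouse 1 or 2 and 9 without tumor mouse 3. Over all genes 480, 613 and 482 were called lower in these fits, against 1229 with all 8 libraries. The plot of gene lists sets these side by side.

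**Figure D4:**
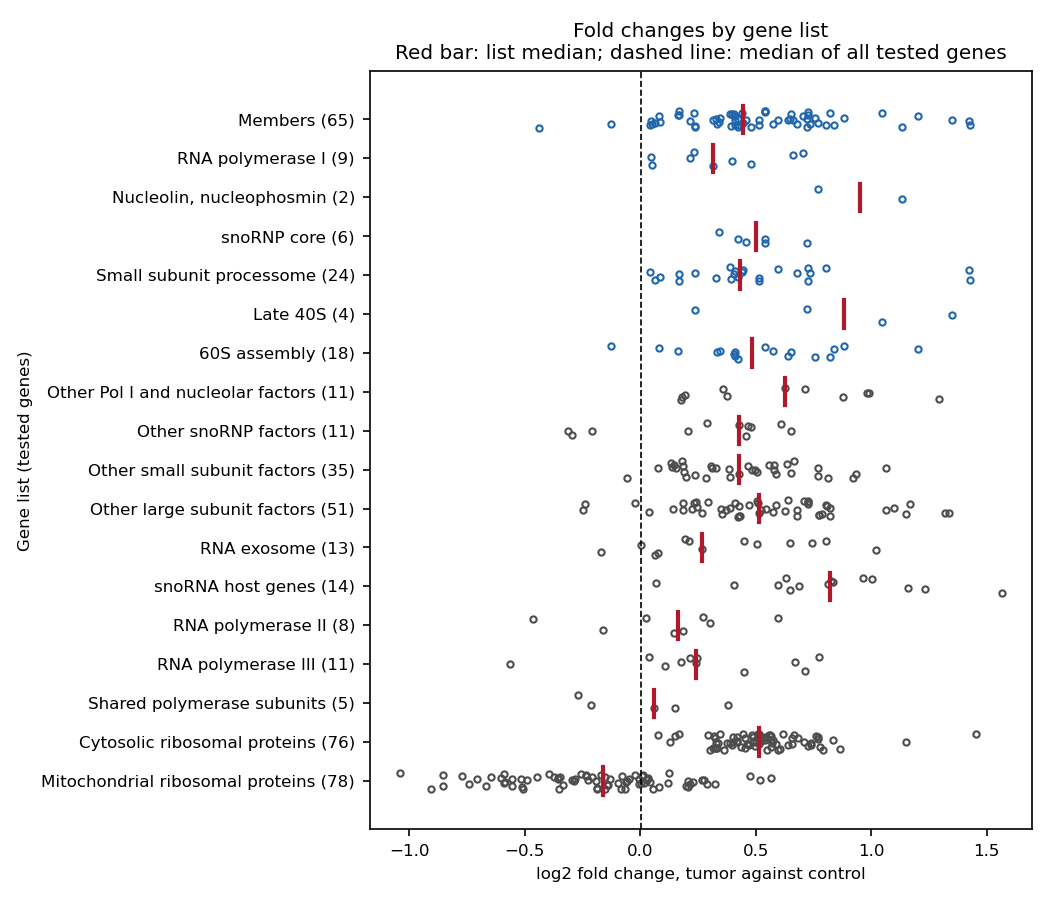
Each point is a tested gene, each row a gene list with its number of tested genes, the red bar the list median and the dashed line the median of all tested genes (0.00). Medians of the assembly lists lie between 0.27 and 0.95 and that of the mitochondrial ribosomal proteins at -0.16.

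Other cell types were followed by marker lists, beside which 11% of all tested genes were called higher and 8.73% lower. Proliferation markers summed to 24.2 to 38.8 CPM in controls and 17.3 to 34.8 CPM in tumor mice, and 0 of 9 tested were called by edgeR (0 at an unadjusted p under 0.05 and 0 by DESeq2). Endothelial markers fell in 4 of 7 genes (147.9 to 216 CPM in controls, 74.0 to 126 CPM in tumor mice) and fibroblast markers in 2 of 7 (433 to 621 CPM against 184 to 400 CPM). Macrophage markers overlapped between groups (41.6 to 67.6 CPM against 32.2 to 123 CPM), with 1 of 8 (12.5%) higher (Cd163), near the share of all genes. Neutrophil markers summed to 0.20 to 1.34 CPM in controls and 1.51 to 4.48 CPM in tumor mice, with 1 of 2 tested genes higher (S100a8) and Ly6g at 0, and lymphocyte markers to at most 0.66 CPM. The neutrophil call was lost without control mouse 1 or 2, without tumor mouse 1, 2 or 3, and without control mouse 4 and tumor mouse 2 together. Of the other lists, satellite cell (5 tested), adipocyte (5), Schwann cell (4) and red cell (5) markers had 0 calls with all 8 libraries. Falls were called in 1 of 5 smooth muscle (20%) and 2 of 12 muscle fibre markers (16.7%). Adipocyte markers summed to 4.75 to 227 CPM in controls and 10.2 to 246 CPM in tumor mice, with control mouse 4 the lowest and tumor mouse 2 the highest library. Without these 2 mice all 5 adipocyte markers were called lower (median log2FC -3.25, against -0.84 with all 8), and without tumor mouse 2 alone Plin1 was. Red cell markers summed to 115 to 239 CPM in controls and 46.5 to 276 CPM in tumor mice, and without tumor mouse 1, the highest library, 3 of 5 were called lower (median log2FC -1.09, against -0.36). For both lists the libraries left out were those that went against a fall, which favored these calls. Of 9 squamous carcinoma markers, Krt5, Krt14, Krt6a, Krt17 and Dsg3 were at 0 in all libraries, and the list summed to 7.45 to 10.6 CPM in controls and 17.4 to 38.4 CPM in tumor mice. Trp63, which made up most of that sum, rose 3.01-fold (adjusted p = 0.00484, edgeR). The part of these cell types in the result was not tested.

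Control mouse 4 and tumor mouse 2 stood apart in fibre type, with log2 ratios of Myh4 (fast fibres) over Myh1, Myh2 and Myh7 together of 0.87 and 2.03, against 2.95 to 5.60 in the other controls and 4.32 to 6.51 in the other tumor mice. Mitochondrial transcripts made up 16.3, 13.6, 12.9 and 22.7% of counts in control mice 1 to 4 and 10.2, 14.8, 8.16 and 7.91% in tumor mice 1 to 4. Only tumor mouse 2 lay within the control range of that share. The part of the share in the members' rise was not tested, and 27 members rose when libraries were scaled without mitochondrial and the most abundant genes. Without both mice, 32 members rose, against 10.5% of all genes, and the median was 0.45. The number of calls depended on single mice. It was 14 without control mouse 1 (4.4% of all genes), 18 without control mouse 2 (5.3%) and 17 without tumor mouse 3 (4.94%). The median log2FC stayed between 0.43 and 0.52 over the 8 fits with 1 mouse left out, and 14 members were called in each of them. These 14 were Wdr43, Nop14, Utp3, Utp14a, Tsr1, Rrp12, Ltv1, Gnl3, Gnl2, Pes1, Nop2, Ncl, Npm1 and Polr1b.

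**Figure D5:**
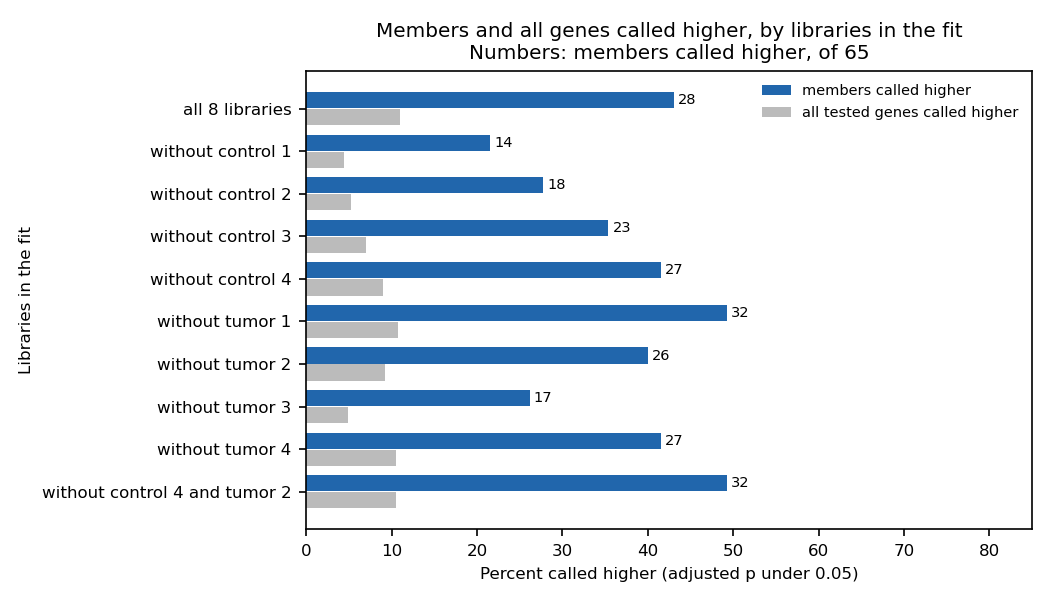
Bars give the percentage of the 65 members (blue, with their number) and of all tested genes (grey) called higher with all 8 libraries and with libraries left out. Blue bars run from 14 to 32 members and exceed the grey bar in each fit shown.

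Read sharing touched a few members. In 13 members at least 1 library held an estimated count more than 0.05 from a whole number, which marks reads divided among genes. This held in all 8 libraries for Fbl, Nop56 and Polr1d and in 7 for Npm1, which has processed pseudogenes, so the values of these 4 genes are less certain. Scaled by transcript length, Npm1 had the highest level among members in controls (52.3 ± 5.66 CPM per kilobase) and Nol4l the lowest (0.19 ± 0.05). Length was taken from annotated transcripts, as 1.63 kilobases for Npm1 and 8.2 for Ncl (26.1 CPM per kilobase). The rank depends on these lengths, and the transcripts used in muscle were not examined.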

How the data were processed

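Polyadenylated RNA from 8 quadriceps muscles was sequenced. The authors deposited 1 table of estimated counts per gene symbol; it was made with Salmon 1.10.1, STAR 2.7.9a, Trim Galore 0.6.7, cutadapt 3.4 and R 4.2.2 on build GRCm39 (per the submitters' processing notes), and the strand setting of the counting is not given in the sources used here. Estimated counts were rounded, genes were kept with edgeR's filterByExpr (minimum count 10), libraries were scaled by TMM, and groups of 4 were compared with edgeR 4.0.16 quasi-likelihood tests (R 4.3.3) over 14070 genes, two-sided, with Benjamini-Hochberg adjustment and a threshold of 0.05. Standard errors are the log2 fold change divided by the root of F. CPM values are scaled by TMM. DESeq2 1.42.0 and limma 3.58.1 were alternatives. The edgeR step was tested on simulated data. Tested genes held 99.92% of the counts.

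Members, gene lists and marker lists were chosen with earlier results of these data known. Named genes were 16 fixed members, the 4 called members of smallest p in each class, the extremes, Myc, and the 3 called genes of smallest p in each other list. Cd3eap, the genes within ratios and others named singly were chosen after their values were seen. Promoter windows came from RefSeq (GRCm38.p6). Replicates are separate mice; batches, sex and collection order were not used here.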

Additional observations from a re-analysis of the deposited data

Results flagged for a closer look

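The highest and lowest library in each group of 4 was set against the other 3 for all 65 members. In 8 of 130 groups (6.15%) the gap to the nearest library exceeded Dixon's critical value for 4 values, and chance flags about 1 in 20. Among controls, control mouse 4 was high for Polr1a (55.0 CPM, against 40.7 to 42.6) and for Utp4 (20.4 CPM, against 15.6 to 16.3), and control mouse 1 was low for Polr1b (10.4 CPM, against 13.8 to 14.03). Among tumor mice, mouse 2 was high for Npm1 (191 CPM, against 125 to 135) and low for Utp23 (2.63 CPM, against 4.37 to 4.54). Tumor mouse 4 was high for the box H/ACA genes Nhp2 (30.7 CPM, against 20.2 to 21.6) and Dkc1 (41.1 CPM, against 27.8 to 29.5), and for the processome gene Utp6 (54.7 CPM, against 41.5 to 43.5).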

How the results depend on the processing

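In all 19 alternative fits 0 members were called lower and the median log2 fold change of the members stayed positive (0.37 to 0.52). The number called higher was 23 to 30 under other scaling, filters, DESeq2, limma-voom or the Myh4 ratio as a covariate, 27 without the 2 genes that match by name only, and 45 with limma-voom quality weights, where 4982 genes were called in all. Leaving out 1 library gave 14 to 32 members and 1110 to 2845 genes, with the lowest counts without control mouse 1 (14 and 1110), tumor mouse 3 (17 and 1190) and control mouse 2 (18 and 1373). With upper-quartile scaling all genes split into 1169 higher and 1547 lower. Among the genes named singly, 938 of the alternative values kept direction and side of the threshold, 92 lost the call, 12 gained it and 0 called values changed sign; Rrn3, not called, was at -0.03 with upper-quartile scaling and -0.01 without tumor mouse 2. These causes were not tested. The ratio differences rest on 4 against 4 libraries, and leaving out 1 (chosen after seeing the data) leaves a smallest exact p of 0.0571, so none could pass there.

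Labels give both groups the same replicate numbers. Deviations of same-numbered mice correlated at 0.03, 0.13, 0.20 and 0.02, and those of differently numbered mice at -0.31 to 0.15. These values do not settle whether the numbers pair the mice, and the main fit did not pair them. With the replicate block 21 members rose and 1932 genes were called.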

Other observations

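Nol3 shares the Nol prefix but encodes an inhibitor of apoptosis and was kept out of the members. Its mean was 66.8 ± 12.0 CPM in controls and 170 ± 55.8 CPM in tumor mice (SD, n = 4), a 2.54-fold rise (edgeR adjusted p = 0.00742). It was singled out after its values were seen.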
